A study of Mus musculus with 6 samples.

Results

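Bnip3 and 9 further genes that encode mitophagy receptors were followed in a mouse acute lymphoblastic leukaemia that lacks the microRNA miR-182. The 10 genes are Bnip3, Bnip3l, Fundc1, Bcl2l13, Fkbp8, Phb2, Pink1, Sqstm1, Optn and Tax1bp1. They were taken by gene symbol from the 55487 genes of the deposited count table, and all 10 were among the 14481 genes with enough counts to test. The tested libraries, KO2, KO3 and KO4, came from leukaemia with the miR-182 KO genotype, and WT1, WT3 and WT4 came from leukaemia wild type for miR-182. In both groups the cells were taken from recipient mice transplanted at 6 to 8 weeks of age and sorted from bone marrow for GFP and for B220, a surface protein of the B lineage. The series describes B-lineage leukaemia driven by BCR-ABL (P190) and T-lineage leukaemia driven by Notch, and all 6 libraries here are from the B220 sort. The labels do not say whether the 3 libraries of a genotype came from separate mice or separate transplants, so p-values measure the spread between these libraries, which may be technical.

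Mitophagy is the removal of mitochondria by autophagy, in which a membrane carrying lipid-bound ATG8 proteins (the LC3 and GABARAP families) closes around the organelle and delivers it to the lysosome. Receptors link the organelle to ATG8 proteins by a short LC3-interacting motif. BNIP3, NIX (encoded by Bnip3l), FUNDC1, BCL2L13 and FKBP8 are anchored in the outer mitochondrial membrane and need no ubiquitin, while PHB2 lies in the inner membrane. PINK1 is a kinase that gathers on damaged mitochondria and phosphorylates ubiquitin on their surface, and ubiquitin chains there are what p62 (encoded by Sqstm1), optineurin (Optn) and TAX1BP1 bind. NIX clears mitochondria from maturing red cells, and BNIP3 is a classical gene of the response to low oxygen.

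Since the genotypes differ in miR-182, the microRNA and the matches to its seed in the 10 genes are shown. The seed, bases 2 to 8, is in capitals in the mature miR-182-5p from RefSeq (GRCm38.p6, chromosome 6 from 30165962 to 30165986, minus strand).
mmu-miR-182-5p: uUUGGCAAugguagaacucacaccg
For each gene the longest 3′ UTR in GENCODE M21 (GRCm38) was searched. The full match of bases 2 to 8 followed by A (TTGCCAAA) was present in Bnip3 and in Bcl2l13, at 1 place each. Pink1 held the shorter form TGCCAAA at 1 place, and the other 7 genes held no match of the core TGCCAA. The matches are in capitals below, on the strand of the gene, at chr7:138891154-138891183 (minus strand) for Bnip3, chr6:120887747-120887776 (plus strand) for Bcl2l13 and chr4:138313409-138313427 (minus strand) for Pink1.
Bnip3 3′ UTR site: aaacaaaatctTTGCCAAAtccactggaga
Bcl2l13 3′ UTR site: tgtctcctacaTTGCCAAAtgtcccccgtg
Pink1 3′ UTR site: agacagtctccaTGCCAAA
The 3′ UTR is 1079 bases long in Bnip3, 5451 in Bcl2l13 and 547 in Pink1. The form TTGCCAAA occurs in 4.96% of the 11963 tested genes with an annotated 3′ UTR. The 7-base form TTGCCAA, which it contains, occurs in 8.01% of genes with a 3′ UTR of about the length of that of Bnip3 and in 37.4% of those near the length of Bcl2l13. A match is a description of the sequence, and mature miR-182 was not measured by these mRNA libraries.

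The promoter of Bnip3 is shown because a list of hypoxia-induced genes is set beside it below. The capitals mark the core letters of the hypoxia response element, ACGTG or GCGTG on either strand, in the stretch from 150 to 21 bases before the RefSeq start (GRCm38.p6, chr7:138909527-138909656, minus strand).
Bnip3 promoter: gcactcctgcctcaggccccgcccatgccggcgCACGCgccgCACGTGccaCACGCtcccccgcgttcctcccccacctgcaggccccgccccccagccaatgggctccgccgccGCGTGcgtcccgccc
The 250 bases before the start held 5 such matches, of which a pair overlaps as the palindrome CACGTG. Among 32851 RefSeq promoters, 38.6% held at least 1 match in the same window, and 1.01% held at least 5. RefSeq promoters were matched for 9 of the 10 genes, and those of the other 8 held between 0 and 3.

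Library totals ran from 20527487 to 29237035 counts in KO and from 17704382 to 23311040 in WT. Levels are CPM (counts scaled to 1000000 per library, with TMM factors), shown for every library, and a ± marks the SD over 3 libraries. Changes are KO over WT on a log2 scale, with SE for the standard error. A gene was called at an adjusted p below 0.05 in the edgeR quasi-likelihood fit. The genotypes differed across the transcriptome: 52.5% of all tested genes were called, 23.9% as higher in KO and 28.5% as lower, and in 64.0% the libraries of KO and WT did not overlap. B-lineage markers were present in every library, though 2 of the 9 given here were called higher in KO and 3 lower. Cd79a, Cd79b, Pax5, Ebf1, Vpreb1, Igll1, Blnk, Cd24a and Ptprc summed to 5878 to 6809 CPM in KO and 6498 to 6861 CPM in WT. The Y-linked gene Ddx3y had 56, 109 and 184 counts in KO2, KO3 and KO4 and 0 in each WT library, while Xist, expressed from the inactive X chromosome of female cells, had 25594 to 35432 counts in KO and 15428 to 19347 in WT. These are raw counts, not scaled for library totals. Ddx3y was thus found in KO libraries alone, so differences by the sex of the cells and by genotype cannot be told apart here.

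Of the 10 receptor genes, Bnip3, Bcl2l13 and Phb2 were higher in KO, Sqstm1, Pink1 and Optn were lower, and Bnip3l, Fundc1, Fkbp8 and Tax1bp1 did not pass. These 3 and 3 of 10 lie near the shares of all tested genes called in each direction, and so do the 7 of 10 whose groups did not overlap. The members' median log2 fold change was 0.04, against -0.0015 over all genes tested. Bnip3 alone among them differed by at least 2-fold, which 5.50% of all tested genes did in that direction.

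**Figure D1:**
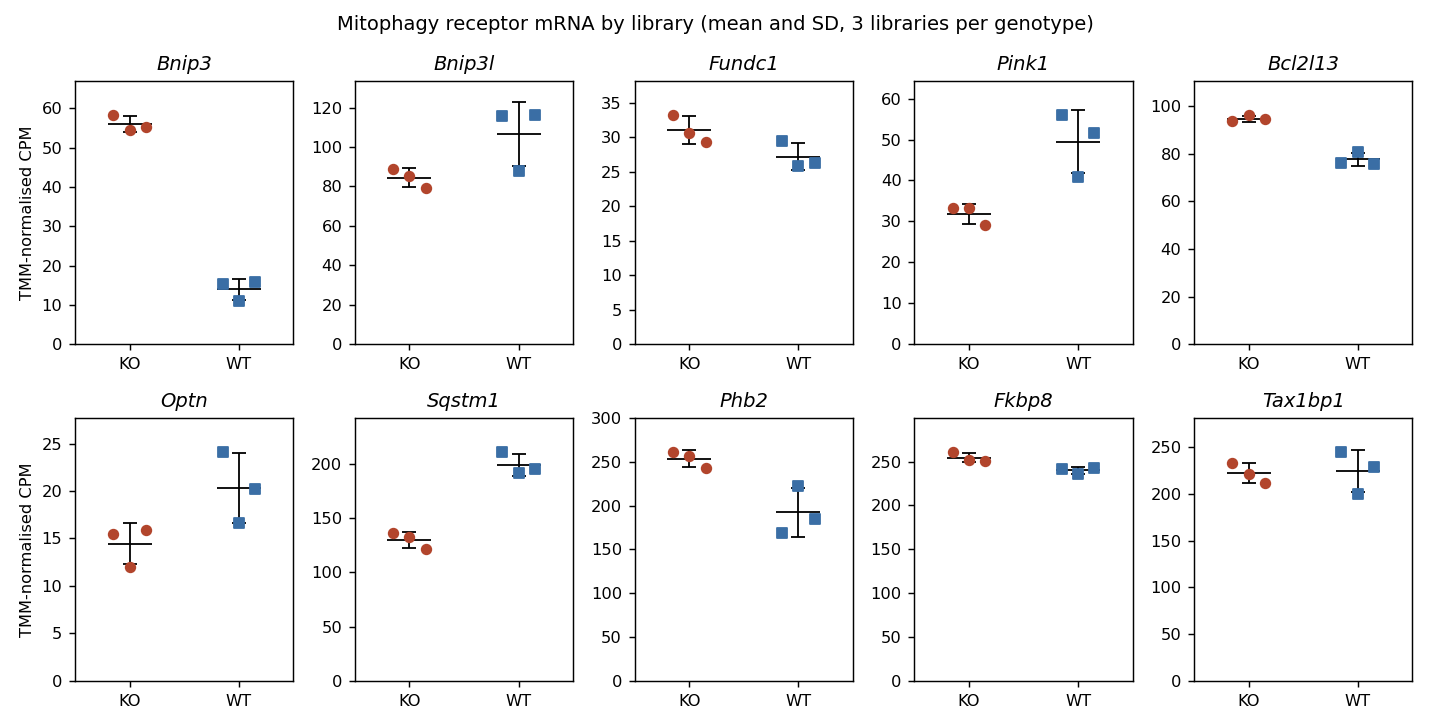
TMM-normalised CPM (vertical axes, from 0) of the 10 mitophagy receptor genes in each KO and WT library; points are libraries and bars are the mean and SD of 3. The Bnip3 libraries lie between 54.5 and 58.2 CPM in KO and between 10.97 and 15.7 CPM in WT, the widest gap of the 10 panels relative to level.

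Bnip3 (ENSMUSG00000078566, chromosome 7 from 138890836 to 138909519, minus strand) encodes the BH3-related outer-membrane receptor that gave the family its name. Its counts were 1219, 1536 and 1690 in KO2, KO3 and KO4 and 251, 249 and 275 in WT1, WT3 and WT4. As CPM these were 58.2, 54.5 and 55.2 in KO and 15.2, 10.97 and 15.7 in WT. The lowest KO library lay above the highest WT library by a wide margin, and WT3 was the lowest of all. The mean was 56.0 ± 1.99 CPM in KO and 14.0 ± 2.62 CPM in WT, a log2 change of 2.01 with an SE of 0.14 (adjusted p = 0.000119), or 4.01-fold with a 95% interval of 3.18 to 5.07. Among the 14481 tested genes 276 had a larger log2 fold change. Over 14 alternative settings the value ran from 1.86 to 2.10, and the call held in each.

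Bnip3l (chromosome 14 from 66985239 to 67008877, minus strand), the closest relative of Bnip3, went the other way without passing. It stood at 88.6, 85.5 and 79.3 CPM in KO and at 115.5, 87.7 and 116.0 CPM in WT. WT3 fell among the KO libraries, so that the groups overlapped. On the log2 scale KO differed from WT by -0.33 (95% interval -0.62 to -0.05, SE 0.12), with an adjusted p of 0.052. Without WT3 it was -0.45 and passed (adjusted p = 0.00283), and it also passed in the DESeq2 Wald test (-0.32, adjusted p = 0.0399). The adjusted p lay between 0.00283 and 0.166 in the 14 alternatives. A pseudogene copy, Bnip3l-ps, had 705 counts over the 6 libraries, and the sources used here do not say how reads shared with it were assigned.

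The ratio of Bnip3 to Bnip3l counts, which does not depend on scaling between libraries, was 0.657, 0.638 and 0.695 in KO and 0.132, 0.125 and 0.135 in WT. Within each genotype this ratio varied little, and the groups were far apart. Its mean log2 value was -0.59 ± 0.06 in KO and -2.94 ± 0.06 in WT (SD, n = 3 each), a difference of 2.34 (two-sided exact permutation p = 0.1, the smallest that 3 against 3 libraries allow). With the 2 further ratios below, adjusted p = 0.1 for each of the 3. WT3, which was low for both genes, had nearly the same ratio as WT1 and WT4.

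**Figure D2:**
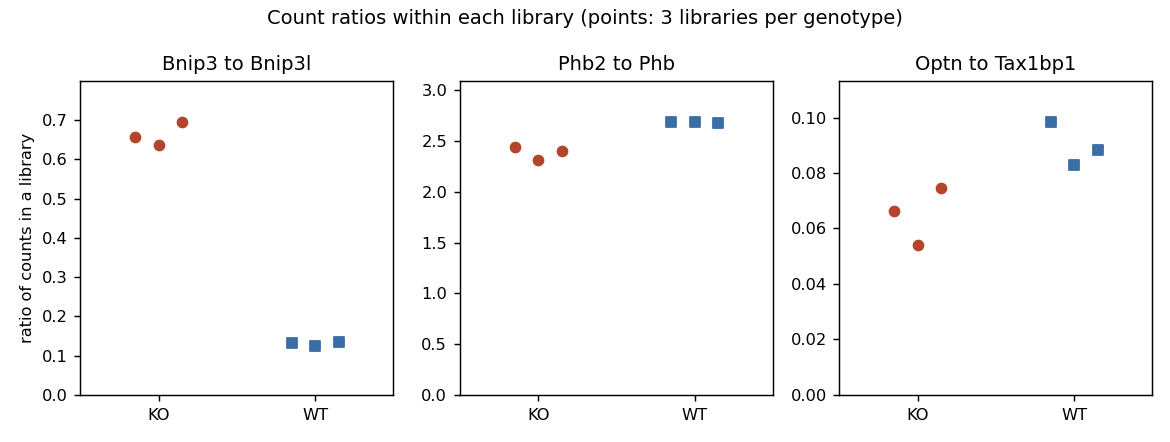
Ratio of counts of a pair of genes within each library (vertical axes, from 0) for Bnip3 to Bnip3l, Phb2 to Phb and Optn to Tax1bp1; each point is a library. KO libraries lie above WT for Bnip3 to Bnip3l, at 0.638 to 0.695 against 0.125 to 0.135, and below WT for the other pairs.

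Among the remaining receptors of the outer membrane, Bcl2l13 rose and Fundc1 and Fkbp8 did not pass. BCL2L13, the mammalian counterpart of yeast Atg32, is encoded on chromosome 6 from 120836212 to 120892842 (plus strand, ENSMUSG00000009112). Bcl2l13 stood at 93.6, 96.1 and 94.5 CPM in KO and 76.2, 80.6 and 75.9 CPM in WT. The libraries of each genotype lay close together and did not overlap. The log2 change of 0.29 (SE 0.06) had an adjusted p of 0.00851 and passed under each of 14 alternatives. Its exons share 628 bases with Bid on the other strand, which had 1008 to 1479 counts in KO and 1008 to 1700 in WT. The sources used here do not say whether counting used strand, so reads in that overlap cannot be told apart.

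Fundc1, a receptor that low oxygen activates through loss of phosphate (chromosome X from 17556564 to 17572325, minus strand), stood at 33.2, 30.7 and 29.3 CPM in KO and 29.4, 25.9 and 26.4 CPM in WT. KO4 lay just below WT1, so the groups overlapped. The log2 fold change of 0.19 (SE 0.09, 95% interval -0.03 to 0.41) had an adjusted p of 0.119 and passed with upper-quartile factors alone (0.25, adjusted p = 0.0496, where the 14 alternatives reached 0.279). Fkbp8, an immunophilin of the outer membrane that recruits LC3 (chromosome 8 from 70527724 to 70535328, plus strand), had 261, 252 and 251 CPM in KO and 241, 235 and 243 CPM in WT. The groups did not overlap, yet the difference was small at 0.08 (SE 0.06, adjusted p = 0.291, 95% interval -0.06 to 0.23). Its exons share 224 bases with Kxd1 on the other strand, which had 964 to 1291 counts in KO and 599 to 829 in WT.

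Phb2 rose together with its partner subunit. Prohibitin 2 (ENSMUSG00000004264, chromosome 6 from 124712336 to 124716950, plus strand) forms a ring in the inner membrane with prohibitin 1, encoded by Phb, and binds LC3 once the outer membrane has ruptured. Phb2 stood at 261, 256 and 243 CPM in KO and at 169, 223 and 184 CPM in WT. All KO libraries were above WT, with WT3 the nearest, and the log2 change was 0.40 with an SE of 0.11 (adjusted p = 0.0203). Its call was lost without KO2 (adjusted p = 0.0606), without KO3 (0.0614) and without WT4 (0.0759), the last being the highest of the 14 alternatives and 0.00182 the lowest. Phb had 107, 111 and 101 CPM in KO and 62.95, 82.9 and 68.9 CPM in WT, a log2 change of 0.57 with an SE of 0.11 (adjusted p = 0.00523). The ratio of Phb2 to Phb counts was 2.44, 2.32 and 2.40 in KO and 2.68, 2.69 and 2.68 in WT, a log2 difference of -0.17 (two-sided exact permutation p = 0.1, the smallest possible). The share of Phb2 relative to Phb was therefore lower in KO while both genes were higher.

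On the ubiquitin-dependent side, Pink1 was lower in KO. Pink1 (ENSMUSG00000028756, chromosome 4 from 138313409 to 138326307, minus strand) stood at 33.3, 33.3 and 29.05 CPM in KO and 55.9, 41.0 and 51.5 CPM in WT. All WT libraries were above KO, with WT3 the lowest of them. The log2 change was -0.63 with an SE of 0.13 (adjusted p = 0.00644), a call held under each of 14 alternatives.

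Among the ubiquitin-binding adaptors Sqstm1 and Optn were lower in KO and Tax1bp1 did not pass. Sqstm1 (ENSMUSG00000015837, chromosome 11 from 50199366 to 50210827, minus strand), the gene of p62, an adaptor that also binds KEAP1, had 136, 132 and 122 CPM in KO and 211, 191 and 195 CPM in WT. The groups were well separated, and the spread within each was small. KO differed from WT by -0.62 on the log2 scale (SE 0.08), with an adjusted p of 0.00109, a call held under each of 14 alternatives. Its exons share 580 bases with Mrnip on the other strand, which had 135 to 233 counts in KO and 79 to 130 in WT.

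Optn, whose product is activated by the kinase TBK1 (ENSMUSG00000026672, chromosome 2 from 5020642 to 5064051, minus strand), had the lowest mean of the 10 per length. In WT its libraries overlapped those of Bnip3 on that scale. Optn had 15.5, 11.96 and 15.9 CPM in KO and 24.1, 16.6 and 20.2 CPM in WT. The highest KO library lay just below WT3. The log2 fold change of -0.49 (SE 0.17) was at the edge of the threshold (adjusted p = 0.047). The call was lost without any one of KO2 (adjusted p = 0.0872), KO3 (0.144), KO4 (0.0622), WT1 (0.121) or WT4 (0.106), in limma-voom (0.0526), with upper-quartile factors (0.0592) and with no filter on low counts (0.0566), and over the 14 alternatives it ran from 0.0162 to 0.144. Tax1bp1 (chromosome 6 from 52713729 to 52766780, plus strand) had 234, 222 and 212 CPM in KO and 245, 200.4 and 229 CPM in WT. All KO libraries lay within the range of WT, and the log2 fold change of -0.01 (SE 0.09, adjusted p = 0.907, 95% interval -0.23 to 0.20) changed sign under 7 of 14 alternatives. The ratio of Optn to Tax1bp1 counts was 0.0662, 0.0539 and 0.0747 in KO and 0.0984, 0.0831 and 0.0882 in WT, a log2 difference of -0.48 (two-sided exact permutation p = 0.1, the smallest possible).

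**Figure D3:**
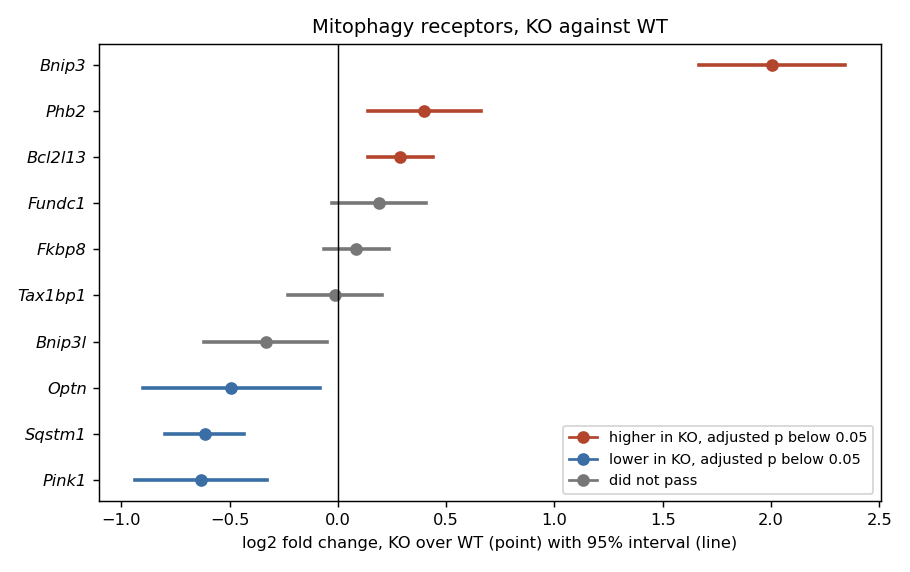
Log2 fold change of KO over WT (horizontal axis) for the 10 receptor genes, ordered by value, with 95% intervals from the edgeR fit; colour gives the call. Bnip3 stands apart at 2.01 (1.67 to 2.34), and the other 9 genes lie between -0.63 and 0.40.

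Levels were compared between genes per kilobase of exon (RPKM, the CPM above divided by exon length). In KO the order by mean was Phb2 (192), Fkbp8 (148), Tax1bp1 (67.7), Sqstm1 (48.6), Bnip3 (31.9), Bnip3l (26.1), Fundc1 (15.7), Bcl2l13 (13.7), Pink1 (13.4) and Optn (5.52 RPKM). Of these neighbours only Bcl2l13 and Pink1 had overlapping libraries. In WT the order was Phb2 (146), Fkbp8 (139), Sqstm1 (74.5), Tax1bp1 (68.4), Bnip3l (32.9), Pink1 (20.8), Fundc1 (13.7), Bcl2l13 (11.2), Bnip3 (7.96) and Optn (7.77 RPKM). In WT the libraries overlapped between Phb2 and Fkbp8, between Sqstm1 and Tax1bp1, and between Bnip3 and Optn. Bnip3 thus stood just above Bnip3l in KO, and close to Optn at the bottom in WT.

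The summed level of all 10 differed far less than that of Bnip3. It was 543 to 582 RPKM in KO and 520.3 to 525 RPKM in WT. Bnip3 made up 5.69%, 5.51% and 5.79% of that sum in KO and 1.65%, 1.2% and 1.71% in WT. Sqstm1 made up 8.38% to 8.79% in KO and 13.8% to 15.03% in WT.

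**Figure D4:**
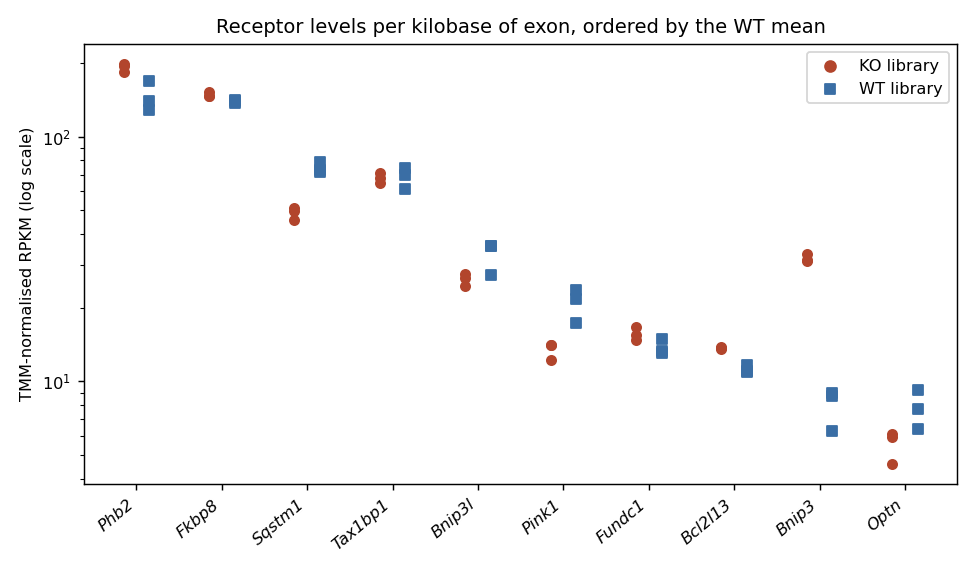
TMM-normalised RPKM (log axis) of the 10 receptor genes in each KO library (circles) and WT library (squares), ordered by the WT mean. Bnip3 is at 31.0 to 33.2 RPKM in KO and at 6.24 to 8.95 RPKM in WT, where it lies beside Optn.

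Markers of other blood cells moved with genotype in these libraries. Their counts stand beside 28.5% of all tested genes called lower in KO and 23.9% called higher. All 17 neutrophil markers were lower in KO, with a summed level of 1396 to 7034 CPM in KO and 16917 to 41278.5 CPM in WT. Of 15 monocyte and macrophage markers all 14 tested were lower, with sums of 312 to 722 CPM in KO and 1538 to 4611 CPM in WT. WT3 had the lowest sum of the WT libraries for both lists, and it also had the lowest WT level of 8 of the 10 receptor genes and the highest of the other two, Phb2 and Bcl2l13. In WT, Pink1, Sqstm1 and Optn followed the order of the neutrophil sums, with WT1 highest, then WT4, then WT3. Tax1bp1 and Fundc1, which did not pass, had the same order in WT. The KO libraries did not show it: the neutrophil sums were 1396, 3309 and 7034 CPM in KO2, KO3 and KO4. In that order Sqstm1 had 136, 132 and 122 CPM, Pink1 33.3, 33.3 and 29.05, and Optn 15.5, 11.96 and 15.9. Phb2 ran in the reverse order of the neutrophil sums in both genotypes, at 169, 184 and 223 CPM in WT1, WT4 and WT3 and 261, 256 and 243 in KO2, KO3 and KO4. In such sorted bulk samples fewer cells of a type and less RNA per cell cannot be told apart. The part of neutrophils and monocytes in the differences of Sqstm1, Pink1, Optn, Phb2 and the other receptor genes was not tested.

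The erythroid list is given because NIX, the product of Bnip3l, clears mitochondria from maturing red cells. Beside the counts given here, 23.9% of all tested genes were called higher in KO and 28.5% lower. Of 8 tested erythroid markers 1, Car2, was higher in KO, and 7 did not pass. Without WT1, 6 were higher, and without WT3, 2 were higher and 1 lower. The sum was 1231 to 1309 CPM in KO and 716 to 843 CPM in WT, most of it from Tfrc and Car2, which other cells express too. The globin gene Hbb-bs had 63.9, 48.5 and 60.1 CPM in KO and 116.7, 11.1 and 26.9 CPM in WT, so WT1 stood apart from WT3 and WT4. Hba-a1 did likewise, with 41.9, 33.2 and 38.97 CPM in KO and 77.3, 9.20 and 18.01 CPM in WT. Klf1 and Gata1, which encode erythroid transcription factors, averaged 0.168 and 0.0386 CPM in KO and 0.248 and 0.206 CPM in WT. T cell markers (8 of 10 tested lower in KO, 4 without KO2 or KO4, 3 without KO3 and 12 without WT3, where more genes could be tested) summed to 22.8 to 27.2 CPM in KO and 70.4 to 129 CPM in WT. NK cell markers (3 of 4 lower, 7 without WT3) summed to 5.73 to 8.68 CPM in KO and 51.3 to 97.5 CPM in WT, and mast cell and basophil markers (4 of 5 lower) to 9.05 to 12.7 CPM in KO and 11.1 to 28.7 CPM in WT. No marker of these lists was at 0 in all 6 libraries, and the part of these cells in the receptor values was not tested.

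The rest of the mitophagy machinery was described by lists of related genes. These are to be read beside all tested genes, of which 23.9% were called higher in KO and 28.5% lower. In the list of PINK1 pathway genes 5 of 17 tested genes were higher in KO, 2 lower and 10 did not pass (median log2 fold change 0.17). The 5 were Usp30 (0.71), a mitochondrial deubiquitinase, the fusion protein gene Mfn1 (0.36), the mitochondrial import genes Tomm40 (0.67) and Tomm70a (0.30), and Rhot1 (0.31), which encodes the mitochondrial GTPase MIRO1. Oma1 (-0.58) and Usp15 (-0.23) were lower, but 0 genes were called lower without KO2 or KO3 and 1 without KO4, WT1 or WT4. Of 12 other receptors and adaptors 4 were higher and 3 lower, among them Nbr1 (-0.50), a relative of p62, Tbc1d17 (0.57) and Chdh (-1.53), while Nipsnap1 (-0.34), Ambra1 (0.28) and Fundc2 (0.23) were the others besides Phb. That list had 2 higher without KO3 or WT4 and 1 lower without KO3. Of the genes lower in these lists Nbr1, Chdh and Usp15 followed the order of the neutrophil sums in WT, and Oma1 and Nipsnap1 did not. The part of neutrophils and monocytes in their values was not tested.

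Genes that regulate the receptors moved in both directions, with 7 of 14 higher and 5 lower, beside 23.9% and 28.5% of all tested genes. Fbxl4 (0.69) and Pptc7 (-0.55), whose products together direct the turnover of BNIP3 and NIX, were called in opposite directions. Pptc7 fell to 29.8 ± 0.927 CPM in KO, against 43.5 ± 1.77 CPM in WT, and Fbxl4 stood at 15.03 ± 1.63 CPM in KO and 9.29 ± 0.322 CPM in WT. Tmem11 (0.72), an outer-membrane partner of BNIP3 and NIX, Mapk8 (0.48), Pgam5 (0.34), a phosphatase of FUNDC1, and Tbk1 (0.43) were higher, as were both catalytic subunits of casein kinase 2, Csnk2a1 (0.28) and Csnk2a2 (0.21). Marchf5 (-0.27), a ubiquitin ligase for FUNDC1, and the AMPK subunits Prkaa1 (-0.47) and Prkaa2 (-0.86) were lower, as was the kinase gene Mapk14 (-0.49). Marchf5 lost its call under 6 of 14 alternatives. Of the 5 lower genes Prkaa1 and Mapk14 followed the order of the neutrophil sums in WT, Marchf5 ran in the reverse order, and Pptc7 and Prkaa2 in neither. The part of neutrophils and monocytes in the values of this list was not tested.

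The lists of autophagy and lysosome genes had more members called lower than higher in KO, beside 28.5% of all tested genes called lower. Of 15 genes of the ATG8 family and its conjugation 9 were lower, 2 higher and 4 did not pass, with a median of -0.51 (5 were lower without KO2 or KO3). Gabarap (-0.55), Gabarapl2 (-0.55) and Map1lc3a (-0.84) fell, Map1lc3b did not pass (-0.26, SE 0.12), and Gabarapl1 rose (0.90, SE 0.15) to 19.4 ± 0.942 CPM in KO, against 10.4 ± 2.00 CPM in WT. The other gene that rose was Atg16l1 (0.33), and Atg4a (-0.97) and Atg12 (-0.63) had the smallest p among those that fell. Of 18 initiation genes 11 were lower, 1 higher and 6 did not pass (median -0.34), with Zfyve1 at -0.73, Atg9a at -0.90 and Atg2a at -0.50. The gene that rose was Uvrag (0.51). Of 20 lysosomal genes 10 were lower, 2 higher and 8 did not pass (median -0.38). Lamp2 (-1.12) and Ctsb (-0.71) fell, and the transcription factor gene Tfeb (0.36) and the channel gene Mcoln1 (0.61) rose, of which 1 was left without KO2 or WT4. Neutrophil and monocyte markers were lower in the same libraries, and their part in these lists was not tested.

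**Figure D5:**
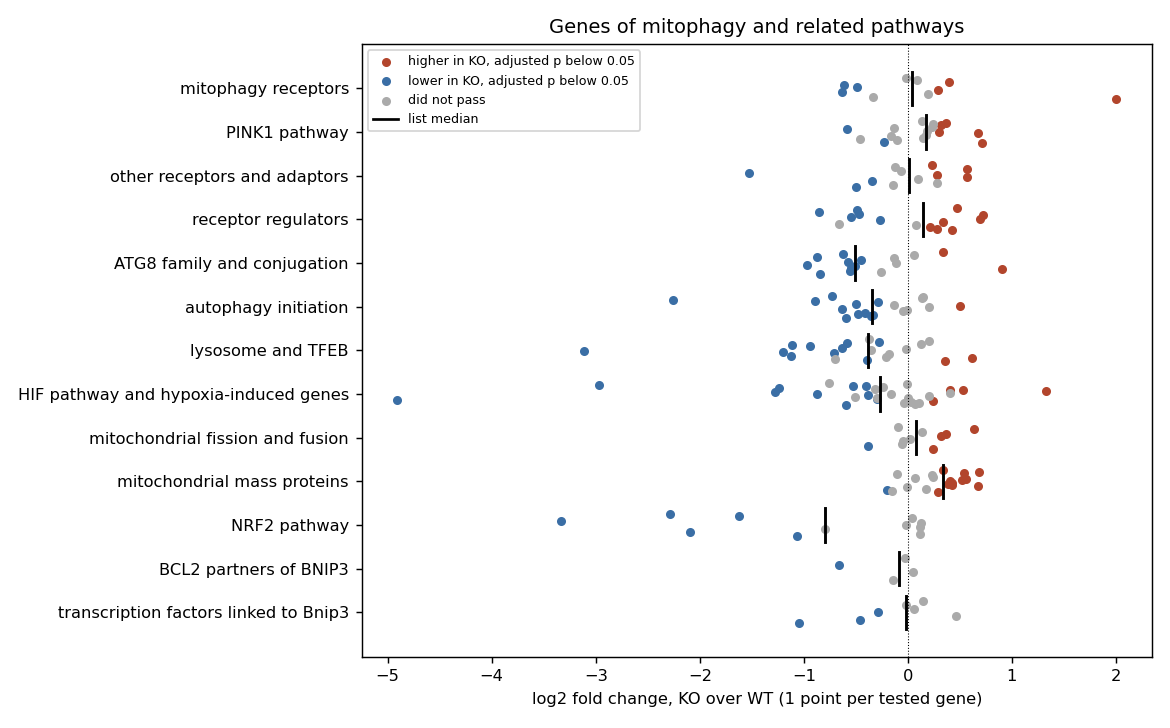
Log2 fold change of KO over WT (horizontal axis) of each tested gene in the receptor list and in 12 related lists; colour gives the call and the black line is the list median. Medians are lowest for the NRF2 list (-0.80) and the ATG8 list (-0.51) and highest for mitochondrial mass proteins (0.34).

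Of 28 tested genes of the HIF list, which leaves Bnip3 out, 4 were higher in KO, 10 lower and 14 did not pass. The median log2 fold change was -0.27. Among all tested genes 23.9% were called higher and 28.5% lower. Hif1a itself was lower, at 106, 105 and 107 CPM in KO and 158.5, 162 and 158 CPM in WT (-0.59, SE 0.06, adjusted p = 0.000476). Egln3, a HIF prolyl hydroxylase that HIF also induces, had 12, 18 and 23 counts in KO and 286, 522 and 341 counts in WT (-4.91, SE 0.19, adjusted p = 9.14e-06). The oxidoreductase gene Ero1l fell as well (-0.87, SE 0.13), and the genes that rose were P4ha1 (0.53), Kdm3a (0.40), Ndrg1 (1.33) and Egln2 (0.24). Of the transcription factor genes linked to Bnip3 in the literature Foxo3 (-1.05, SE 0.10), Foxo1 (-0.46) and Rela (-0.28) were lower, 0 of 7 were higher and 4 did not pass. The count of lower genes was 1 without KO2, KO3 or WT4, and E2f1 (0.46, SE 0.16, adjusted p = 0.05005) was called higher without KO3 or WT3 and in 5 further settings. Foxo3, a forkhead factor known to activate Bnip3 in muscle, had 47.4, 48.0 and 51.4 CPM in KO and 114.7, 94.1 and 94.4 CPM in WT. In WT, Ero1l, Kdm3a, Ndrg1 and Foxo3 followed the order of the neutrophil sums, with WT1 highest, then WT4, then WT3. Egln3, Egln2, Rela and E2f1 ran in the reverse order, and Hif1a, P4ha1 and Foxo1 in neither. The part of neutrophils and monocytes in the values of both lists was not tested, nor was a link of either list to the level of Bnip3.

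The counts of this paragraph stand beside 23.9% of all tested genes called higher in KO and 28.5% called lower. Genes of mitochondrial mass were the list with the highest median. Of 19 genes 11 were higher in KO, 1 lower and 7 did not pass (median 0.34), with the inner-membrane organiser gene Immt at 0.54, the protease gene Lonp1 at 0.68, the chaperonin gene Hspe1 at 0.52 and Tomm40 as above. The gene that fell was Vdac3 (-0.20). Without WT4, 7 were higher, and 0 were lower without WT4, WT3, KO2, KO3 or KO4. In WT, Immt, Lonp1, Hspe1 and Tomm40 ran in the reverse order of the neutrophil sums, with WT3 highest, then WT4, then WT1. In KO none of them ran in the reverse order of those sums. The part of neutrophils and monocytes in the values of the mass list was not tested. Of 10 tested fission and fusion genes 4 were higher (Mfn1, Opa1 at 0.32, Dnm1l at 0.24 and Mtfp1 at 0.63), 1 lower (Fis1 at -0.39) and 5 did not pass, and 2 were higher without KO2 or WT4. In the list of NRF2 and its targets 5 of 11 were lower, 0 higher and 6 did not pass (median -0.80, beside 28.5% of all tested genes lower), with Nfe2l2 (-1.07), Hmox1 (-2.10), Slc7a11 (-3.33), Osgin1 (-2.29) and G6pdx (-1.62) lower, and 1 was higher without WT3. Hmox1 had 6.21, 9.01 and 8.78 CPM in KO and 51.4, 17.97 and 33.96 CPM in WT, and all 5 lower genes followed the order of the neutrophil sums in WT, with WT1 highest, then WT4, then WT3. The part of neutrophils and monocytes in the values of this list was not tested. Of 4 tested BCL2 proteins that BNIP3 can bind or that resemble them, Mcl1 was lower (-0.66, SE 0.17) except without KO2 or KO4 (adjusted p = 0.0559 and 0.0556), and Bcl2 (-0.14), Bcl2l1 (0.05) and Bcl2l2 (-0.02) did not pass. The sign of Bcl2l2 turned with upper-quartile factors. Mcl1 and Fis1, which were lower, and Mfn1, which was higher, followed the order of the neutrophil sums in WT. The part of neutrophils and monocytes in the values of these genes was not tested.

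The genes whose pattern over the 6 libraries was most like that of Bnip3, by Pearson r of log2 CPM among 9529 genes, were Btbd8 (r = 0.999), Dnajb5 (0.999), Wtap (0.998), Dclk2 (0.998) and Commd9 (0.998). Their log2 fold changes were 1.23, 0.94, 0.18, 0.90 and 1.28, all smaller than that of Bnip3. These libraries form 2 separate groups and share their depth and normalisation, and 57 of the 9529 genes had an r of at least 0.99.

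The 8-base match TTGCCAAA was in the longest 3′ UTR of 593 tested genes, Bnip3 and Bcl2l13 among them. Of these genes 23.1% were called higher in KO and 36.8% lower, against 25.4% and 30.8% of 11370 genes without the match. The sets with and without it were not matched for 3′ UTR length, and an effect of miR-182 on them was not tested. In the authors' deposited table, made with DESeq2, Bnip3 had a log2 fold change of 2.03 (adjusted p = 4.14e-36). The authors' deposited table gave the same call as the edgeR fit for each of the 10 receptor genes at an adjusted p of 0.05, with Bnip3l at 0.0526 and Optn at 0.0355.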

How the data were processed

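Messenger RNA libraries were prepared from 1.3 ug of total RNA with a SMARTER kit, per the labels. The deposited counts are whole reads for each Ensembl gene, listed with symbol, exon length and position on GRCm38.p6, per the file headers; the submitters' processing notes name GRCm38 and mm10. No aligner or counter is stated in the sources used here. A further deposited table gives the authors' own log2 fold changes and adjusted p-values from DESeq2. The tables deposited under the names FPKM and TPM sum to 1000000 per library and were not used.

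Genes were kept with filterByExpr (minimum count 10, minimum total 15), scaled with TMM and tested with the quasi-likelihood test of edgeR 4.0.16 on genotype alone in R 4.3.3, with Benjamini-Hochberg adjustment over 14481 genes. Adjusted p-values come from edgeR where no other tool is given. The SE is the log2 fold change divided by the square root of F. Alternatives used DESeq2 1.42.0 and limma 3.58.1. The procedure was tested on simulated data. RPKM used the authors' exon lengths. Precision is limited by 3 libraries per genotype.

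Named genes are the receptors, up to 4 genes per list with the smallest p, the 5 genes most like Bnip3 in pattern (mean of at least 5 CPM; no immune receptor segments, X or Y genes, or provisional symbols), and genes on which a count of 5 or fewer rests. That last kind, and Fbxl4, Csnk2a1, Csnk2a2, Tbk1, Pgam5, Gabarap, Map1lc3a, Map1lc3b, Hbb-bs, Hba-a1, Klf1 and Gata1, were chosen after their values were seen. The receptors and lists were chosen with earlier results of these data known. Some genes of these lists are counted but not reported here by name, and 1 B-lineage marker is left out of the printed sum.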

Additional observations from a re-analysis of the deposited data

How the results depend on the processing

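Other normalisations, gene sets, tests and filters, a block for the replicate number, and the omission of each library were tried. The counts of receptors and of all genes called in each direction, and the value of Bnip3, stayed within 1.5 times or on the same side of the threshold under every alternative run. The 3 count ratios kept their direction, but their test cannot pass the threshold at this size. Receptors called higher in KO ranged from 2 to 3 and those called lower from 2 to 4 over the left-out libraries, and all genes called from 2396 to 3848 higher and from 3218 to 4479 lower. Numbers 3 and 4 are shared by both genotypes, but the labels do not say that they pair libraries, and deviations of same-numbered libraries correlated at 0.03 and 0.16. With the replicate block 2925 genes were called higher and 3842 lower, and Bnip3 kept its call at 2.06.

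Tax1bp1 changed sign without passing, at 0.045 with upper-quartile factors, 0.046 with no filter on low counts, 0.0067 without immune receptor segments and mitochondrial genes and 0.019 with the replicate block, and it ran from -0.086 to 0.048 over the left-out libraries. Bcl2l1 turned to -0.031 with the replicate block and ran from -0.015 to 0.13 over the left-out libraries. Bcl2l2 turned to 0.034 with upper-quartile factors and 0.035 with no filter on low counts and ran from -0.059 to 0.086 over the left-out libraries. The cause was not tested. Over 68 other named genes, 858 of 952 values kept their side of the threshold and their direction, 81 lost the call and 7 gained it. With 3 libraries per genotype, changes as small as that of Fkbp8 lie within the interval of the fit.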
